A study of Mus musculus with 192 samples.

Results

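The heat-shock chaperones described here are 10 genes, chosen by name, of the 49466 genes counted in single red cell progenitors of the mouse fetal liver. They comprise 6 proteins of the cytosol and nucleus (Hspa8, Hspa1a, Hsph1, Dnajb1, Hsp90aa1 and Hsp90ab1), 3 of the mitochondrial matrix (Hspa9, Hspd1 and Hspe1) and 1 of the endoplasmic reticulum (Hspa5). Colony-forming units-erythroid (CFU-E) were set against burst-forming units-erythroid (BFU-E), which precede them on the way to the red cell. Both came from livers of C57/Bl6J mice at embryonic day 14.5, with no other treatment or allele given in the labels. In both, cells bearing lineage antigens, Sca-1, CD16/32 or CD41 were depleted before single cells were sorted with CD117, CD71 and CD24 antibodies, and no source used here gives the gates. Full-length transcripts were copied and amplified by the SmartSeq2 method, in which PCR copies of 1 molecule cannot be told from separate molecules.

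Chaperones hold unfolded protein chains until they fold, pass them on, or keep them soluble. HSP70 proteins such as Hspa8 bind short exposed stretches in a cycle driven by ATP, J-domain proteins such as Dnajb1 start that cycle, and HSP110 proteins such as Hsph1 release the nucleotide that ends it. HSP90 proteins act later, on nearly folded clients such as kinases and steroid receptors. In mitochondria Hspa9 pulls in and holds imported chains, and Hspd1 with its lid Hspe1 encloses them in a barrel, while Hspa5, also called BiP, serves the endoplasmic reticulum. In red cell precursors HSP70 is known for protecting the transcription factor GATA1, and Hspa9 for the assembly of iron-sulfur clusters.

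After wells with fewer than 100000 counts or 2000 genes were left out, 89 CFU-E and 92 BFU-E cells remained, with 131891 to 2992101 and 114288 to 3864040 gene-assigned counts. Medians of 7789 and 7869.5 genes per cell had a count. Each cell was thinned to 100000 counts, and levels are the thinned sums scaled to CPM, the usual unit in which all genes of a group add up to the same total. No label names an animal or pool, so each cell type is 1 sample, no difference has a replicate check, and no p-value is given. Plate here means the cells of 1 sorted type, since the column names give no plate, and batch and cell type cannot be told apart. Intervals are exact 95% intervals and cover counting error only. The 12 erythroid markers summed to 12460 CPM in CFU-E and 1785 CPM in BFU-E cells. Clustered without any chaperone gene, the BFU-E plate fell into 40 granulocyte-monocyte-like cells (12 granulocyte-monocyte markers at 5288 CPM in sum) and 52 erythroid-like cells (the same markers at 57.7 CPM and the erythroid markers at 2876 CPM). Megakaryocyte markers, 6 in number, summed to 24.8 CPM in CFU-E, 166 CPM in granulocyte-monocyte-like and 427.5 CPM in erythroid-like BFU-E-plate cells, and their part in the differences between these classes was not tested. In granulocyte-monocyte-like cells lymphoid markers summed to 111 CPM and mast cell and basophil markers to 101.5 CPM, against 11.7 and 7.12 CPM in erythroid-like cells. Their part was not tested either. Per cell the granulocyte-monocyte markers ran from 90 to 18170 CPM in that class, and classes from marker sums put 36 cells in it. The first cluster was led by Flt3, Tifab and Ncf1, and also by Csf1r, which is one of the granulocyte-monocyte markers. In the second, Ermap and Epor, both erythroid markers, were among the 10 leading genes. Among the CFU-E cells, 3 carried at least 3 lymphoid markers, and these markers summed to 2370 CPM in them, against 1.16 CPM in the other 86.

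Heat shock factors, chiefly HSF1, bind inverted repeats of the triplet GAA, and the response to unfolded protein in the endoplasmic reticulum acts on other elements. Promoter sequences from RefSeq (GRCm38.p6) were used for 6 of the 10 genes, and that of Hspa9 was not looked for. For these 6 genes, 5 stretches are shown because they hold or lack such elements. In each, capitals mark GAANNTTC or TTCNNGAA, the cores of a heat-shock element, or, in Hspa5, the endoplasmic reticulum stress element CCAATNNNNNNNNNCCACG; both strands were searched. The first stretch is the 215 bases between 1 of the 2 RefSeq start sites of Hspd1 and that of Hspe1, from which the genes point away from each other, and the others are the 250 bases before a start site.
Hspd1 and Hspe1, chr1:55087933-55088147 (+): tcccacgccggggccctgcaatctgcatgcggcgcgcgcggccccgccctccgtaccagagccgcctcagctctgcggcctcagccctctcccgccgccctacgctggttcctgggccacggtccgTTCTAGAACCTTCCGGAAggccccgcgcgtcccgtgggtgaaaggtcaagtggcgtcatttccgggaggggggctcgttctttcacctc
Hspa1a, chr17:34972157-34972406 (-): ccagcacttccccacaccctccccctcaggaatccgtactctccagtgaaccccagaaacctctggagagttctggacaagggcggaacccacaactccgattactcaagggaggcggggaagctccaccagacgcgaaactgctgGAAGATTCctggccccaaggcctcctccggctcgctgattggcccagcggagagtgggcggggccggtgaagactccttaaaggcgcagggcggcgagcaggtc
Hsph1, chr5:149636337-149636586 (-): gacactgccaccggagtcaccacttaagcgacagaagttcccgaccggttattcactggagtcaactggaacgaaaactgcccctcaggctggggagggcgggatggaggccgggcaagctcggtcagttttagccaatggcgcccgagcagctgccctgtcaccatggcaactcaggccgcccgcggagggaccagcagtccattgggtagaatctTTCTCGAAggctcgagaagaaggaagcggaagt
Dnajb1, chr8:83607925-83608174 (+): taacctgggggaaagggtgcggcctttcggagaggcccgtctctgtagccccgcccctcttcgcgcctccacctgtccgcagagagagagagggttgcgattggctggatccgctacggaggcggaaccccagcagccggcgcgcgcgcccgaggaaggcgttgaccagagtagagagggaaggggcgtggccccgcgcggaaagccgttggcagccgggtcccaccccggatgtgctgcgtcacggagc
Hspa5, chr2:34771840-34772089 (+): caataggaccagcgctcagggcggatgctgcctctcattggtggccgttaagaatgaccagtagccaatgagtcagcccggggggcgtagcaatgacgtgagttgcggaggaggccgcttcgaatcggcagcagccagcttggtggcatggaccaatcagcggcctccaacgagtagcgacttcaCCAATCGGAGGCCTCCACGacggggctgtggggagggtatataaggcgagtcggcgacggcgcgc
Between Hspd1 and Hspe1, 3 cores overlap in 1 run of capitals, before both of these starts. The window of the other Hspd1 start had none. Of 32851 promoter windows of 300 bases, 15.1% held at least 1 core and 0.256% at least 3. Hspa1a had 1 core, 104 bases before its start, and Hsph1 had 1 core before the start shown, 33 bases from it. The 300-base window of Hsph1 reaches past its start and held 2 more there, so that it too is among the windows with at least 3. The windows of both Dnajb1 starts had none, which says only that these letters are not there. Hspa5 held 1 endoplasmic reticulum stress element, 65 bases before its start, as did 0.119% of all windows; the element contains the letters CCAAT, which 37.4% of windows held. These matches are descriptions and not shown binding sites.

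The 10 chaperones together took a larger share of the transcripts in CFU-E cells, at 3.32% of all counts against 1.64% in BFU-E cells. Hspa8, at 1.72% against 0.528%, and Hspd1, at 0.617% against 0.179%, made up most of this difference. Per cell, the summed level of the 10 genes was 14180 CPM at the lowest, 31280 at the median and 62300 at the highest in CFU-E cells, against 10510, 15980 and 25200 CPM in BFU-E cells. Of the 10, 9 reached the minimum of 5 CPM on average over both plates. Hspa8, Hspd1 and Dnajb1 were higher by 2-fold or more in CFU-E cells and 0 were lower by as much, whereas 6.28% of 9445 measured genes were that much higher and 34% that much lower. The median log2 ratio was 0.45 over the 9 chaperones and -0.57 over all measured genes. Scaling by the trimmed mean of M values (TMM) raised all log2 ratios by 0.57, and median-of-ratios factors by 0.63. Under either, 5 of the 9 passed 2-fold upward, with Hspa9 and Hsph1 added, where 15.4% and 16.6% of genes passed it upward and 18.9% and 17.9% downward. The ratios of Hsp90ab1 and Hspa5, below 1 in CPM, were 1.32 and 1.46 under TMM. Ratios below are of CPM, and changes close to 1 therefore carry no direction.

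**Figure D1:**
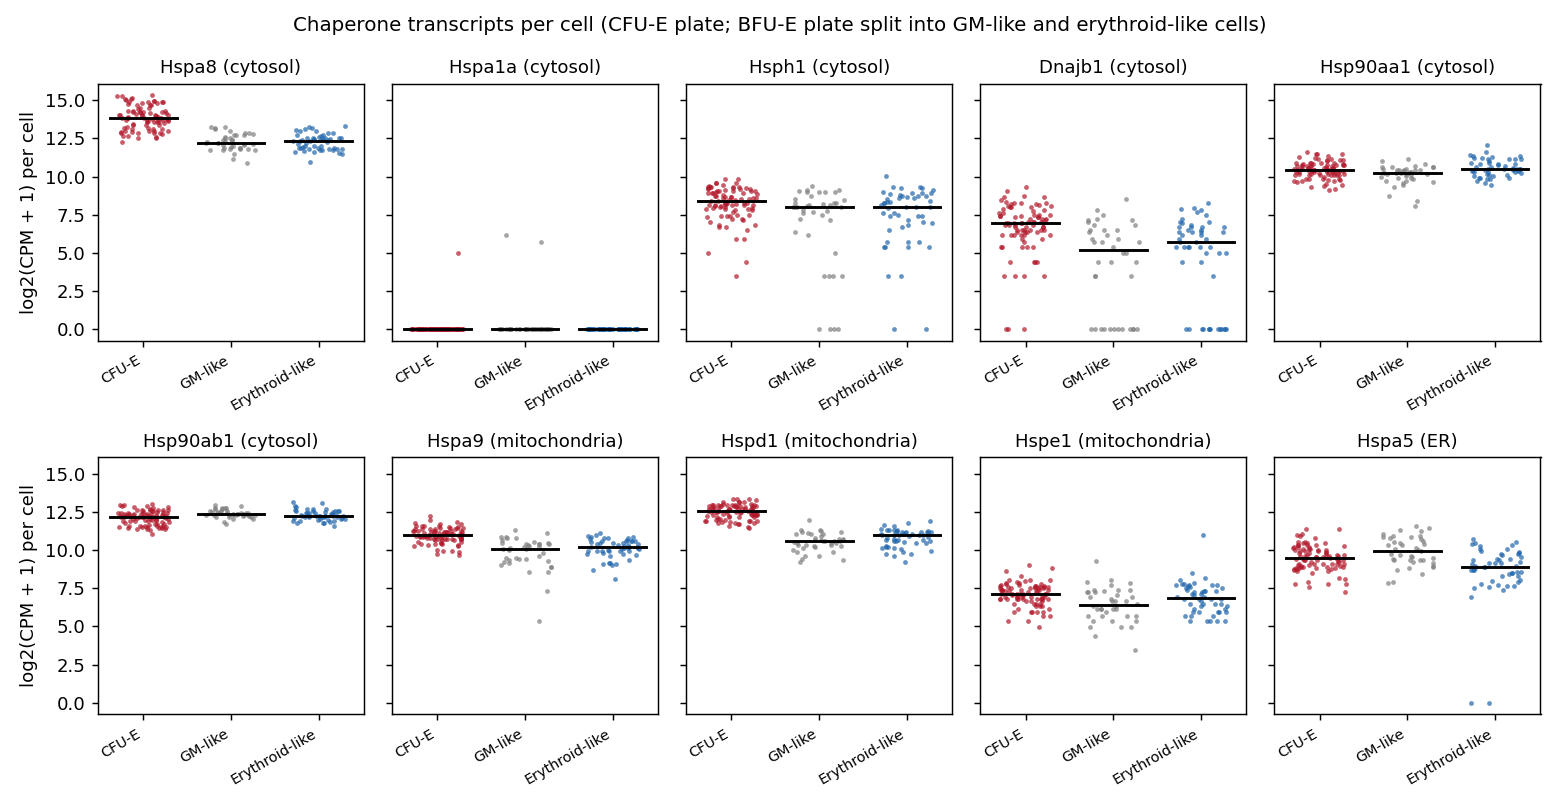
Level of each chaperone in each cell, as log2(CPM + 1) of thinned counts, with 1 point per cell and a line at the median, for 89 CFU-E cells, 40 granulocyte-monocyte-like (GM-like) and 52 erythroid-like cells of the BFU-E plate. Hspa8 and Hspd1 of the CFU-E cells lie mostly above the highest BFU-E-plate cells, Hsp90aa1 overlaps over most of its range, 14 CFU-E cells lie below the lowest BFU-E cell for Hsp90ab1, and nearly all cells have no Hspa1a count.

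Hspa8 (ENSMUSG00000015656, chromosome 9, 40800984 to 40810087), the constitutive HSP70 of the cytosol, was the most abundant of the set in CFU-E cells. It stood at 17163 CPM in CFU-E and 5276 CPM in BFU-E cells (5229 to 5323), for a ratio of 3.25 (3.22 to 3.29). Per cell it was 4970 CPM at the lowest, 14760 at the median and 41240 at the highest in CFU-E cells, against 1880, 5045 and 10220 CPM in BFU-E cells. The ranges overlapped, yet 66 of 89 CFU-E cells lay above the highest BFU-E cell and 0 BFU-E cells reached the CFU-E median. By CPM it was the 4th gene of all in CFU-E cells and the 8th in BFU-E cells; per kilobase of exon it was 9th and 21st.

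Dnajb1 (ENSMUSG00000005483, chromosome 8, 83608193 to 83612653), a heat-inducible J-domain partner of HSP70, stood at 148 CPM (140 to 156) in CFU-E and 66.1 CPM (60.9 to 71.6) in BFU-E cells, for a ratio of 2.24 (2.04 to 2.47). Levels per cell ran from 0 through a median of 120 to 650 CPM in CFU-E cells, and from 0 through 45 to 360 CPM in BFU-E cells. A count was present in 96.6% of thinned CFU-E cells (90.5% to 99.3%) and 72.8% of thinned BFU-E cells (62.6% to 81.6%). The 2 distributions overlapped widely, with 5 CFU-E cells above the highest BFU-E cell.

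Hsph1 (ENSMUSG00000029657, chromosome 5, 149614287 to 149636376), the HSP110 protein that exchanges nucleotide on HSP70, stood at 369 CPM (356 to 381) in CFU-E and 269 CPM (258 to 280) in BFU-E cells, for a ratio of 1.37 (1.30 to 1.44). Its cells ran from 10 through 330 to 910 CPM in CFU-E, and from 0 through 255 to 1060 CPM in BFU-E. No CFU-E cell lay above the highest BFU-E cell.

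Hspa1a (ENSMUSG00000091971, chromosome 17, 34969190 to 34972156), the stress-inducible HSP70, was nearly undetected. It had 3 thinned counts, all in 1 cell, among CFU-E cells and 12 in 2 cells among BFU-E cells. Before thinning, 1 of 89 CFU-E cells had 32 counts and 4 of 92 BFU-E cells held 185, of which 78 were in 1 cell. The BFU-E cells with a thinned count were both granulocyte-monocyte-like, and the erythroid-like BFU-E cells had 0 thinned counts, a limit of 0.577 CPM at 3 counts. Before thinning, 184 of the 185 counts were in 3 granulocyte-monocyte-like cells and 1 was in an erythroid-like cell. Its near-identical neighbour Hspa1b had 19 unthinned counts in 5 CFU-E cells and 12 in 3 BFU-E cells. Since the 2 genes share sequence, their split is uncertain, and both together remain far below the other chaperones.

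The HSP90 pair differed little between the plates. Hsp90ab1 (ENSMUSG00000023944, chromosome 17, 45567775 to 45573271), the constitutive HSP90, stood at 4760 CPM (4715 to 4806) in CFU-E and 5364 CPM (5317 to 5411) in BFU-E cells, for a ratio of 0.887 (0.876 to 0.899). Its cells ran from 2150 through 4700 to 8250 CPM in CFU-E, and from 3100 through 5165 to 9060 CPM in BFU-E, so 14 CFU-E cells lay below the lowest BFU-E cell. Hsp90aa1 (ENSMUSG00000021270, chromosome 12, 110690605 to 110702728), the inducible HSP90, stood at 1473 CPM (1448 to 1499) in CFU-E and 1447 CPM (1422 to 1472) in BFU-E cells, for a ratio of 1.02 (0.994 to 1.04). Cells ran from 560 through 1380 to 3160 CPM in CFU-E, and from 270 through 1365 to 4300 CPM in BFU-E, and overlapped over nearly the whole range. Per kilobase, the constitutive form exceeded the inducible one in each of the 89 CFU-E and 92 BFU-E cells, by 4.23-fold and 4.86-fold over the sums.

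The 3 mitochondrial chaperones did not move alike. Hspd1 (ENSMUSG00000025980, chromosome 1, 55077835 to 55088243), the HSP60 barrel, stood at 6171 CPM in CFU-E and 1794 CPM in BFU-E cells, for a ratio of 3.44 (3.38 to 3.50). Its cells ran from 2880 through 6090 to 10660 CPM in CFU-E, and from 600 through 1665 to 4090 CPM in BFU-E. This gene separated the plates more than any other of the set, with 73 of 89 CFU-E cells above the highest BFU-E cell. Hspa9 (ENSMUSG00000024359, chromosome 18, 34937414 to 34954357), mortalin, stood at 2142 CPM (2112 to 2173) in CFU-E and 1159 CPM (1137 to 1181) in BFU-E cells, for a ratio of 1.85 (1.81 to 1.89). Its cells ran from 840 through 2010 to 4820 CPM in CFU-E, and from 40 through 1140 to 2590 CPM in BFU-E, with 21 CFU-E cells above the highest BFU-E cell.

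Hspe1 (ENSMUSG00000073676, chromosome 1, 55088132 to 55091307), the HSP10 lid of the barrel, stood at 153 CPM (145 to 162) in CFU-E and 144 CPM (137 to 152) in BFU-E cells, for a ratio of 1.06 (0.986 to 1.15). Its cells ran from 30 through 140 to 520 CPM in CFU-E, and from 10 through 105 to 2070 CPM in BFU-E. One shallow erythroid-like BFU-E cell, number 74 with 114288 counts and 4517 genes, held the 2070 CPM, while the next of its class had 370 CPM. Without that cell the plate ratio of Hspe1 was 1.25. Hspd1 over Hspe1, per kilobase, was 22.4 in CFU-E and 6.94 in BFU-E cells, although the 2 proteins work together and the genes share the stretch printed above. In GENCODE the 2 genes overlap on opposite strands, and no source used here says whether the counting used strand.

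Hspa5 (ENSMUSG00000026864, chromosome 2, 34771970 to 34777547), the HSP70 of the endoplasmic reticulum, stood at 844 CPM (825 to 863) in CFU-E and 859 CPM (840 to 878) in BFU-E cells, for a ratio of 0.983 (0.952 to 1.01). Its cells ran from 150 through 730 to 2640 CPM in CFU-E, and from 0 through 670 to 3060 CPM in BFU-E. The similar sums cover 2 kinds of BFU-E-plate cell that differ. Granulocyte-monocyte-like cells held 1203 CPM (1169 to 1238) and erythroid-like cells 594 CPM (574 to 616), so that the CFU-E level was 1.42-fold (1.36 to 1.48) that of erythroid-like BFU-E cells.

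Against the erythroid-like BFU-E cells alone, the other large ratios stayed near those of the plates. They were 3.26 for Hspa8 (3.22 to 3.30), 3.19 for Hspd1 (3.12 to 3.26), 2.11 for Dnajb1 (1.87 to 2.37), 1.76 for Hspa9 (1.71 to 1.81) and 1.30 for Hsph1 (1.22 to 1.38). Hspe1, Hsp90ab1 and Hsp90aa1 had ratios of 0.916 (0.841 to 0.999), 0.911 (0.897 to 0.925) and 0.896 (0.872 to 0.921), all of which were above 1 under TMM, at 1.38, 1.37 and 1.35. Without BFU-E cell 74 the Hspe1 ratio was 1.18, and that of Hsp90aa1, which stood at 4300 CPM in this cell, was 0.925. Again 3 of 9 passed 2-fold upward and 0 downward, where 5.97% and 31.3% of 9125 genes did. Under TMM 5 passed upward, with Hspa9 and Hspa5 added, where 15.7% of genes did and 15.5% passed downward. Under median-of-ratios factors 6 passed upward, with Hsph1 added too, where 16.6% of genes did and 14.6% passed downward. Leaving out the 3 lymphoid-marker CFU-E cells gave 3.29 for Hspa8 and 3.23 for Hspd1, and 6.03% of genes were then higher by 2-fold or more and 32% lower. In those 3 cells Hspa8 stood at 12480 CPM and Hspd1 at 4013 CPM.

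Within the BFU-E plate, Hspa5 was the one chaperone past 2-fold, 2.02-fold (1.93 to 2.12) higher in granulocyte-monocyte-like than in erythroid-like cells, where 14.3% of 9918 genes passed 2-fold upward and 8.72% downward. Per cell it ran from 230 through 1000 to 3060 CPM in granulocyte-monocyte-like cells, and from 0 through 485 to 1730 CPM in erythroid-like cells. The groups overlapped, with 10 of 40 granulocyte-monocyte-like cells above the highest erythroid-like cell. This ratio ran from 1.82 to 2.02 over the processing alternatives and from 1.94 to 2.10 with single cells left out, so it lies at the 2-fold line. It missed the line under TMM, where 13.8% of genes passed it upward and 9.15% downward, and under median-of-ratios factors, where 13.7% and 9.3% did. Hsp90aa1 was lower in granulocyte-monocyte-like cells, 1189 against 1645 CPM, for a ratio of 0.723 (0.698 to 0.749), and so was Hspd1, 1611 against 1934 CPM, for a ratio of 0.833 (0.807 to 0.860). Hspa8 was level at 5284 and 5269 CPM. Hspe1 stood at 114 and 167.5 CPM, for a ratio of 0.681 that was 0.876 without BFU-E cell 74. This comparison and the one of CFU-E cells share the erythroid-like cells.

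**Figure D2:**
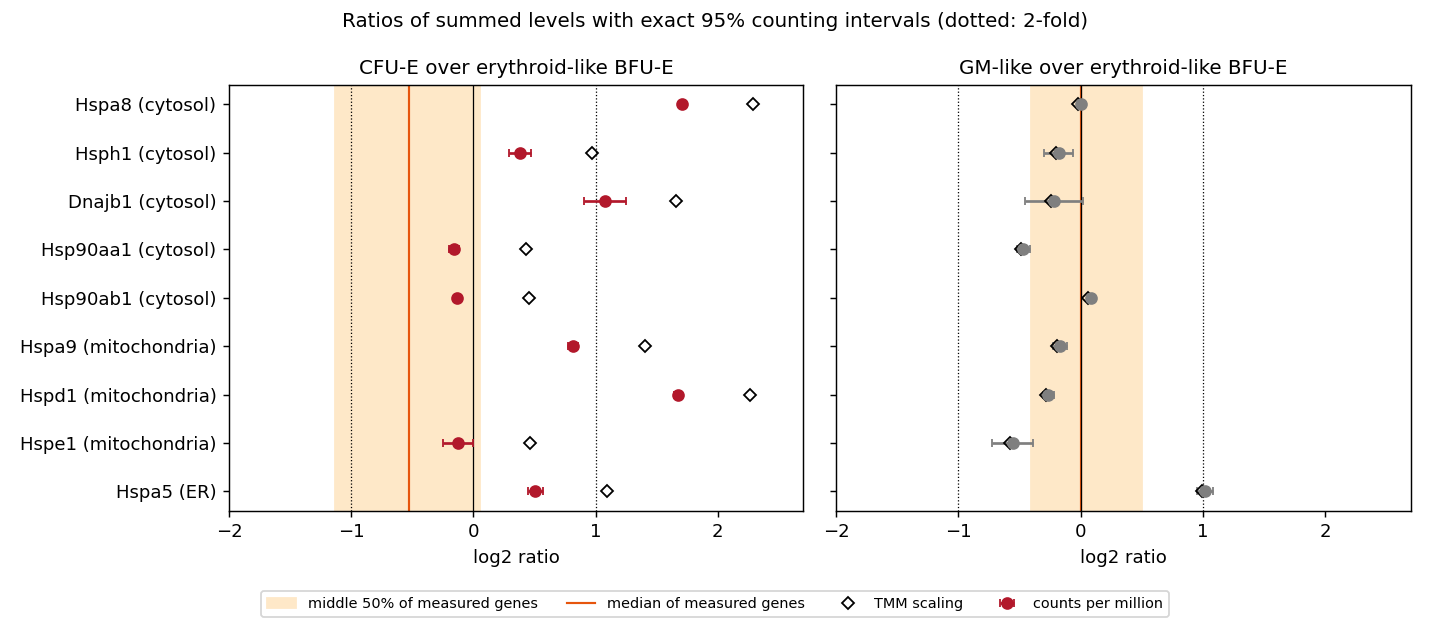
Log2 ratios of the 9 measured chaperones with exact 95% counting intervals (points), the same under TMM (diamonds), and the median and middle 50% of all measured genes on the log2(CPM + 1) scale (orange line and band). On the left, CFU-E over erythroid-like BFU-E cells, Hspa8 and Hspd1 have ratios of 3.26 and 3.19 and the 2 HSP90 genes and Hspe1 lie at or just below 0; on the right, granulocyte-monocyte-like over erythroid-like cells, Hspa5 alone lies near 2-fold.

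Levels of different genes were compared per kilobase of exon, with all annotated exons of a gene merged (4301 bases for Hspa8 and 2999 for Hsp90ab1). A single transcript can be shorter than this, so the order depends on the length used. In CFU-E cells the order was Hspa8 at 3991, Hspd1 at 2336, Hsp90ab1 at 1587, Hspa9 at 497, Hsp90aa1 at 375, Hspa5 at 199.6, Hspe1 at 104, Hsph1 at 50.7 and Dnajb1 at 46.3 CPM per kilobase. In BFU-E cells Hsp90ab1 came first at 1789, followed by Hspa8 at 1227 and Hspd1 at 679 CPM per kilobase. Without the division by length, Hsp90ab1 and Hspa8 were nearly level there, at 5364 and 5276 CPM. Hspa8 over Hsp90ab1, per kilobase, was thus 2.51 in CFU-E and 0.686 in BFU-E cells. Per kilobase, Hspa8 exceeded Hsp90ab1 in 85 of 89 CFU-E cells and in 18 of 92 BFU-E cells. Hspd1 over Hspa9 was 4.70 in CFU-E and 2.52 in BFU-E cells. By compartment, the cytosolic members made up 65.9% of the per-length level in CFU-E and 73.4% in BFU-E cells, the mitochondrial ones 32.0% and 22.3%, and Hspa5 2.17% and 4.33%. These shares are free of the scaling between plates but rest on the same merged lengths. The share of Hspa5 was 6.11% in granulocyte-monocyte-like and 2.98% in erythroid-like BFU-E-plate cells.

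**Figure D3:**
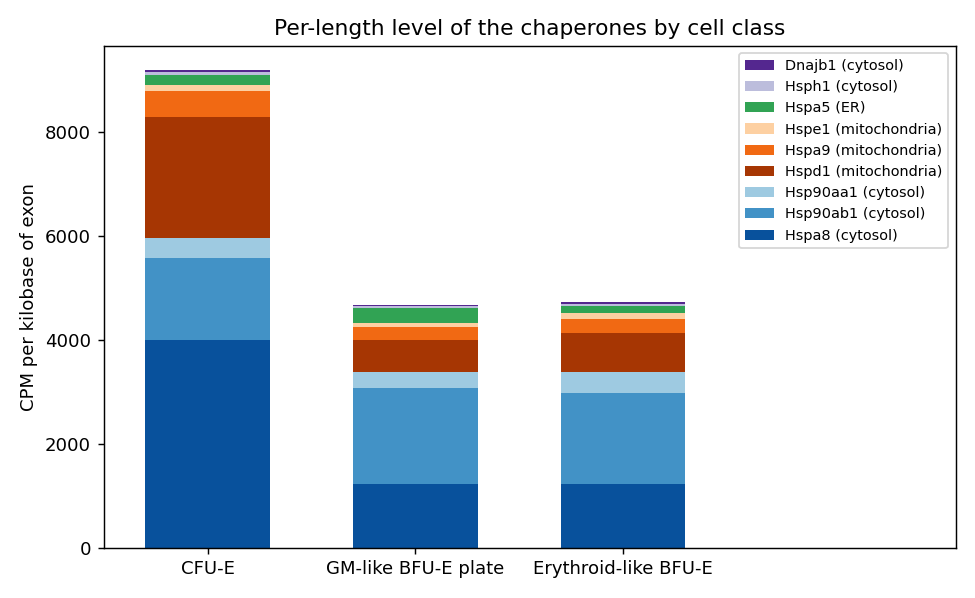
Stacked level per kilobase of exon of the 9 measured chaperones in the 89 CFU-E, 40 granulocyte-monocyte-like and 52 erythroid-like BFU-E-plate cells, coloured by gene. The CFU-E bar, with Hspa8 at 3991 and Hspd1 at 2336 CPM per kilobase, is the tallest, while the Hsp90ab1 block is about as high in the 3 bars.

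Cells of 1 class varied in their chaperones to different degrees. The upper quartile of Hspa8 was 2.11 times the lower in CFU-E cells and 1.64 times in erythroid-like BFU-E cells, and that of Hsp90ab1 was 1.55 and 1.32 times. Hsph1 spread less in CFU-E cells, at 2.41 times, than in erythroid-like BFU-E cells, at 3.93 times. Hspa5 spread by 2.28 and 2.78 times. Counting error per cell is larger at lower levels, and its part in the spread of Hsph1 was not tested.

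Across cells of 1 class, Hsp90aa1 and Hspd1 had the highest correlation of the 36 pairs without Hspa1a in CFU-E and in erythroid-like BFU-E cells. Their Spearman correlation was 0.55 over 89 CFU-E, 0.51 over 40 granulocyte-monocyte-like and 0.68 over 52 erythroid-like BFU-E-plate cells. Hspd1 correlated with its lid Hspe1 at 0.37 in CFU-E and 0.52 in erythroid-like BFU-E cells, and with Hspa9 at 0.41 and 0.51. Hspa8 and Dnajb1, a partner pair in protein refolding, had -0.03 and 0.08, or 0.03 and 0.13 before thinning. Dnajb1 was low, at a median of 120 and 50 CPM per cell, and the part of counting error in its correlations was not tested. Over the 36 pairs the median was 0.14 in CFU-E, 0.17 in granulocyte-monocyte-like and 0.28 in erythroid-like BFU-E cells, with 7, 10 and 15 pairs at 0.3 or more. The points share a library preparation and, after thinning, a depth. In CFU-E cells the unthinned count of a cell correlated with its thinned level of Hspd1 at 0.41 and of Hsp90ab1 at 0.43, and its part in these values was not tested.

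**Figure D4:**
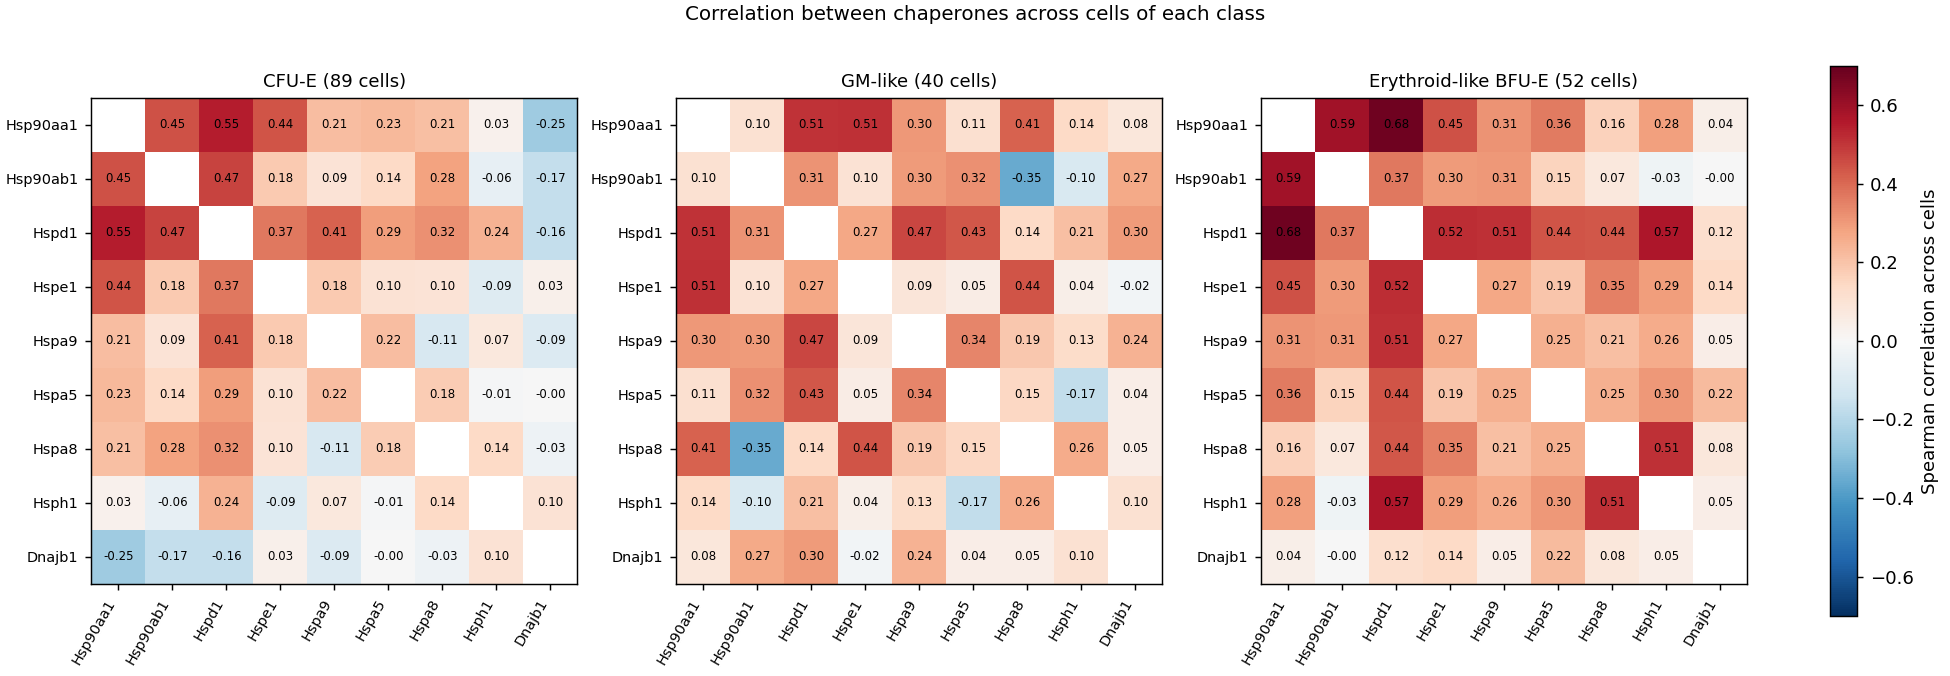
Spearman correlation of log2(CPM + 1) between pairs of chaperones across the cells of each class, from blue (negative) to red (positive), with the value in each square. The squares of Hsp90aa1 with Hspd1 read 0.55, 0.51 and 0.68, and the row of Dnajb1 is pale in erythroid-like BFU-E cells.

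The relation to erythroid markers was negative in CFU-E and positive in erythroid-like BFU-E cells for each measured chaperone but Dnajb1. Its size varied, and Hsph1 in CFU-E cells, at -0.06, and Hsp90ab1 in erythroid-like BFU-E cells, at 0.08, had almost none. With the mean log2 level of the 12 markers, Hspd1 and Hspe1 correlated at -0.27 and -0.30 over the 89 CFU-E cells, and at 0.54 and 0.53 over the 52 erythroid-like BFU-E cells. Hspa8 had -0.31 and 0.26. Dnajb1 was positive in both, at 0.30 and 0.23. Without the 3 lymphoid-marker cells, in which the erythroid markers summed to 580 CPM, Hspd1 and Hspe1 had -0.36 and -0.35 in the other 86 CFU-E cells. These are descriptions over cells of 1 plate each.

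Among 4802 genes counted in at least 50% of cells of both erythroid classes, those most like the chaperones were ranked by the lower of their correlations in CFU-E and erythroid-like BFU-E cells. Nearest to the mean of the 3 mitochondrial chaperones was Npm1, the nucleolar histone chaperone nucleophosmin, at 0.60 over 89 CFU-E and 0.52 over 52 erythroid-like BFU-E cells. Next were Cacybp at 0.48 and 0.46, Set, another histone chaperone, at 0.39 and 0.47, Ppia, the prolyl isomerase cyclophilin A, at 0.40 and 0.39, and Ncl, nucleolin, at 0.37 and 0.64. Nearest to Hspa5 was Hsp90b1, the HSP90 of the same compartment, at 0.39 and 0.50. Rrm2, a subunit of ribonucleotide reductase, followed at 0.36 and 0.35, Calr, the lectin chaperone calreticulin, at 0.35 and 0.41, Uhrf1 at 0.36 and 0.34, and Actg1, an actin, at 0.34 and 0.43. For the mean of the 6 cytosolic chaperones the nearest genes were Kti12, Tomm20, G3bp1, Orc2 and Klf1, with lower correlations between 0.30 and 0.36. The median of that lower value over all ranked genes was between -0.05 and -0.03 for the 3 scores. The cytosolic mean weights its 6 genes alike, although in erythroid-like BFU-E cells only 75% had a Dnajb1 count and 96.2% an Hsph1 count. The part of such low-count genes in the ranking was not tested.

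The wider chaperone network was followed in 11 lists of 151 genes, of which 118 were measured. In CFU-E cells 5 of the 118 passed 2-fold upward and 20 downward, beside 6.28% and 34% of all genes. The higher ones were Bag2, Tcp1, Ppp1r15a, Xbp1 and Btg2. Under TMM the counts were 24 and 9, beside 15.4% and 18.9% of all genes. Under median-of-ratios factors they were 29 and 8, beside 16.6% and 17.9%. The balance thus depends on the scaling, in the lists and over all genes.

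Among HSP70 helpers, Bag2, which exchanges nucleotide on HSP70 and inhibits the ubiquitin ligase CHIP, stood at 761 CPM in CFU-E and 110 CPM in BFU-E cells, for a ratio of 6.93 (6.49 to 7.42). It was the largest ratio in all the lists and was 10.3 under TMM. Bag1, of the same family, stood at 11.7 and 6.96 CPM. St13, the HSP70-interacting protein that slows release, was lower at 245 against 539 CPM, for a ratio of 0.454 (0.431 to 0.477), and Bag4 was lower at 8.65 against 17.6 CPM. Of 9 helpers measured, 1 passed 2-fold upward and 2 downward, beside 6.28% and 34% of all genes. The median log2 ratio was 0.26, beside -0.57 over all genes. The HSP110 gene Hspa4 had 330 against 221 CPM, and its relative Hspa4l 211 against 123 CPM. Of 5 measured relatives 0 passed 2-fold either way, beside the same shares of all genes. Hspa14 stood at 208 and 236 CPM and Hspa2 at 4.49 and 8.91 CPM.

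Of 20 measured J-domain genes, 0 passed 2-fold upward in CFU-E cells and 3 downward, beside 6.28% and 34% of all genes. The median log2 ratio was -0.37, beside -0.57 over all genes. Dnaja2, a major partner of Hspa8, had 986 CPM in CFU-E and 529 CPM in BFU-E cells, for a ratio of 1.86 (1.80 to 1.93), and Dnajc5 had 206 and 120 CPM. The lower ones were Dnajc21, at 3.71 against 12.3 CPM, Sec63, at 11.9 against 26.3 CPM, and Dnajc17, named after its value was seen, at 5.28 against 12.1 CPM.

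Of 16 HSP90 co-chaperones, 0 passed 2-fold upward and 2 downward, beside 6.28% and 34% of all genes. The median was -0.53, close to the -0.57 over all genes. Ptges3, the p23 protein that holds HSP90 closed, had 423 CPM in CFU-E and 217 CPM in BFU-E cells, for a ratio of 1.95 (1.84 to 2.06), and the immunophilin Fkbp4 1396 and 843 CPM. Fkbp5, an immunophilin induced by glucocorticoids, was lower at 3.15 against 12.3 CPM. Of the 14 genes of the TRiC chaperonin, which folds actin and tubulin, and of prefoldin, which feeds it, 1 passed upward and 2 downward. These counts too stand beside 6.28% and 34% of all genes. The median was 0.01, beside -0.57 over all genes. The TRiC subunits Tcp1 and Cct8 stood at 2277 against 1114 CPM, for a ratio of 2.04, and at 2268 against 1407 CPM. Tcp1 had a ratio of 1.88 against erythroid-like BFU-E cells. The prefoldin subunits Pfdn5 and Vbp1 were lower. Pfdn5 had 11.1 CPM in CFU-E and 37.7 CPM in BFU-E cells, and Vbp1 99.3 and 209.6 CPM.

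Of 17 other mitochondrial chaperones and proteases, 0 passed 2-fold upward and 1 downward, beside 6.28% and 34% of all genes. The median was -0.24, beside -0.57 over all genes. Htra2, a protease, had 156 against 89.5 CPM, and Grpel1, the nucleotide exchanger of Hspa9, had 176 CPM in CFU-E and 107 CPM in BFU-E cells, for a ratio of 1.65 (1.52 to 1.79). Hscb, the J-domain partner of Hspa9 in iron-sulfur cluster assembly, was lower at 6.29 against 27.7 CPM, for a ratio of 0.227 (0.167 to 0.304). Clpb had 57.8 against 99.1 CPM. Under TMM the ratios of Htra2, Grpel1 and, named after its value was seen, Dnaja3 were 2.60, 2.45 and 2.25. That of Hscb was 0.337. Under this scaling 15.4% of all genes passed 2-fold upward and 18.9% downward.

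In the endoplasmic reticulum, 0 of 20 measured chaperones passed 2-fold upward in CFU-E cells and 5 downward, beside 6.28% and 34% of all genes. The median was -0.61, beside -0.57 over all genes. Against erythroid-like BFU-E cells alone 0 passed upward and 1 downward, beside 5.97% and 31.3% of all genes. The median there was -0.16, beside -0.53 over all genes. Canx, the membrane lectin calnexin, had 2028 CPM in CFU-E and 1257 CPM in BFU-E cells, for a ratio of 1.61 (1.58 to 1.65), and Dnajb11 had 24.7 and 15.1 CPM. Hsp90b1 had 438 and 811 CPM, for a ratio of 0.540 (0.520 to 0.562) that was 0.685 against erythroid-like BFU-E cells. The lower ones were Hspa13, at 12.9 against 43.3 CPM, Dnajc1, at 20.2 against 45.4 CPM, and, named after their values were seen, Calr, at 173 against 371 CPM, Pdia6 and Hyou1. Against erythroid-like BFU-E cells Dnajc1, Calr, Pdia6 and Hyou1 had ratios of 0.594, 0.691, 0.590 and 0.542, short of 2-fold. Within the BFU-E plate 3 of the 20 were higher by 2-fold or more in granulocyte-monocyte-like than in erythroid-like cells, and the median log2 ratio was 0.61 beside 0.00 over all genes; 3 of 20 is close to the 14.3% of all genes. These were, named after their values were seen, Calr, at 529 against 249.8 CPM, Pdia4, at 426 against 197.5 CPM, and Manf, at 61 against 29.04 CPM, and Hsp90b1 stood at 1034 against 640 CPM.

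Among 9 regulators of the unfolded protein response, 2 passed 2-fold upward in CFU-E cells and 1 downward, beside 6.28% and 34% of all genes. The median was -0.22, beside -0.57 over all genes. Against erythroid-like BFU-E cells alone 1 of 8 passed upward and 2 downward, beside 5.97% and 31.3% of all genes. The median there was 0.29, beside -0.53 over all genes. Xbp1, a transcription factor activated by splicing, stood at 38.7 against 18.6 CPM, for a ratio of 2.08 (1.73 to 2.51), and Ppp1r15a, which restores translation after stress, at 56.3 against 24.5 CPM, for a ratio of 2.30 (1.96 to 2.71). Ppp1r15a had a ratio of 1.99 against erythroid-like BFU-E cells. Ern1, the sensor that splices Xbp1, was lower at 12.9 against 39.5 CPM, and Ddit3 had 9.44 against 17.1 CPM.

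Regulators of the heat-shock genes themselves were not higher in CPM in CFU-E cells. Hsf1, the main heat-shock transcription factor, had 50.9 CPM (453 counts) in CFU-E and 63.8 CPM (587 counts) in BFU-E cells, for a ratio of 0.798 (0.704 to 0.903) that was 1.19 under TMM. Hsf2 was lower at 6.74 against 24.3 CPM, and Hsbp1, which binds HSF1, at 18.2 against 71.5 CPM. Of 9 small heat-shock proteins, 0 were measured. Of 19 immediate early genes, which rise within minutes of cell handling, 5 were measured. Klf6 had 5.06 CPM in CFU-E and 29.1 CPM in BFU-E cells, Jun 2.36 and 8.37 CPM, Btg2 49.4 and 10.7 CPM, and Dusp1 7.64 and 5.33 CPM. In erythroid-like BFU-E cells alone Klf6 stood at 21.3, Jun at 1.92, Btg2 at 3.46 and Dusp1 at 2.12 CPM, so that the ratio of Jun was 1.23 against these and 0.282 against all BFU-E cells, and that of Btg2 14.3 and 4.64. The erythroid-like values of Jun, Btg2 and Dusp1 rest on 10, 18 and 11 thinned counts, in 5.77% to 7.69% of cells. The ratios against them are therefore uncertain in size. Over 89 CFU-E cells, the mean of this list correlated with Hspa8 at -0.10 and with Dnajb1 at 0.12.

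**Figure D5:**
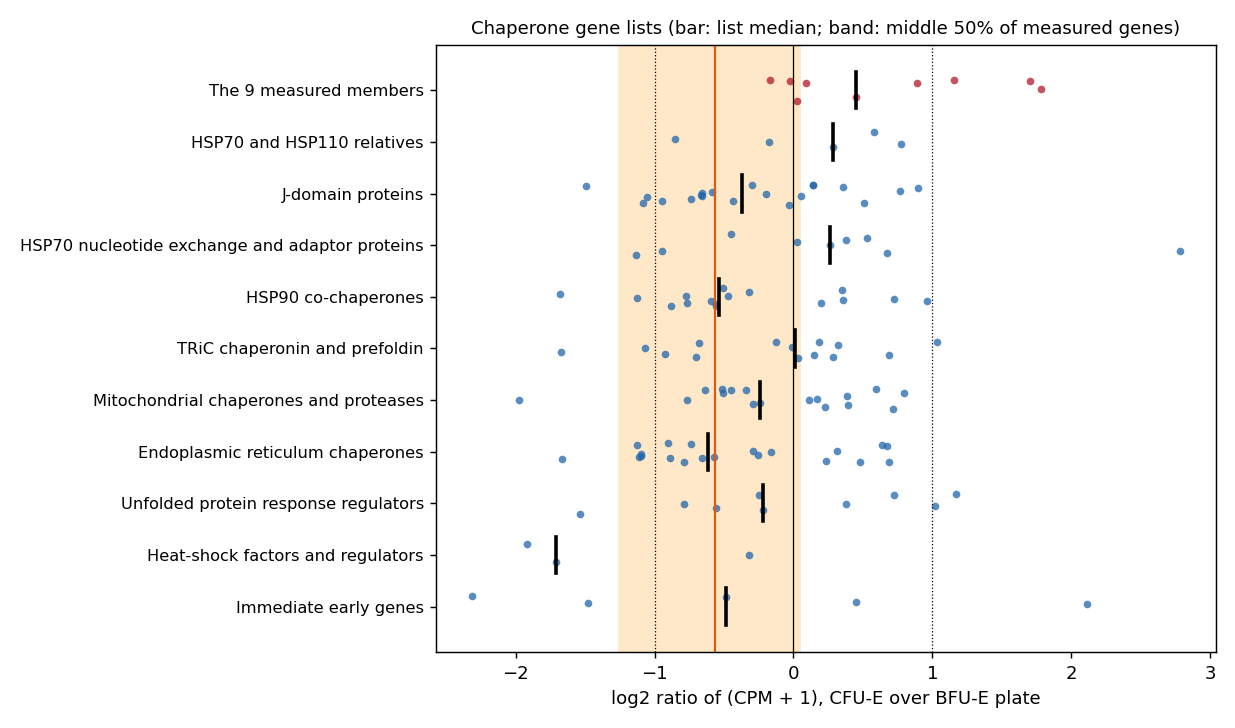
Log2 ratio of CPM + 1, CFU-E over BFU-E plate, for the 9 measured chaperones (red) and the measured genes of each list (blue), 1 point per gene, with list medians as bars and the median and middle 50% of all 9445 measured genes in orange. The median of the 9 is 0.45 and that of all genes -0.57, and Bag2 is the point farthest to the right.

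Some chaperones share sequence with copies elsewhere in the genome, and no source used here says how reads with several possible origins were treated. Of all 50-base runs in a gene's GENCODE M21 transcripts, the share also found in another gene was 66.3% for Hspa1a, 47.5% for Hsp90aa1, 42.1% for Hspd1, 39.4% for Hspa8 and 22.8% for Hspe1. It was 3.44% for Hsp90ab1, 2.81% for Hspa9, 0.412% for Dnajb1 and 0 for Hsph1 and Hspa5. The levels of the first 5 may therefore be too low, by an amount these counts do not show, and their per-length order is less certain. The processed copy Hspd1-ps3 had 48.4 CPM in CFU-E and 10.1 CPM in BFU-E cells, for a ratio of 4.79 (3.82 to 6.06), and Gm8355, a copy of Hspa8, had 56.5 and 15.2 CPM. Copies named as pseudogenes of a member are listed for Hspa9, Hspd1 and Hspe1 only. Adding them left the ratios of these genes within their counting intervals. The other ratios could not move, since Gm8355 and other copies not so named were not added. Nor does such a sum bring back reads that may have been left out for having several origins.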

How the data were processed

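Single cells of 2 sorted types were sequenced. The column names give all BFU-E cells 1 tag and all CFU-E cells another, and do not say what the tag stands for. Plate is used here as a name for the cells of 1 sorted type, and any batch behind the tag cannot be told apart from cell type. The deposited values are unnormalized read counts for each gene, and the submitters' processing notes list STAR 2.4, featureCounts and the build GRCm38. Of 192 cells, 191 columns matched a cell by name; the remaining CFU-E cell and 1 column were left out.

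Wells under 100000 counts or 2000 genes were dropped and the rest thinned to 100000 counts (seed 1). Sums per class gave CPM with exact Poisson intervals, ratios with exact conditional binomial intervals and shares with exact Clopper-Pearson intervals; no test was made between single samples. Log2 ratios over genes used log2(CPM + 1). A gene was measured at a mean of 5 CPM, a difference was counted from 2-fold, and the floor was 3 counts over a group. The ratio step was tested on simulated counts. The BFU-E plate was split by Ward linkage, using 10 principal components from 1000 variable genes, with 161 chaperone genes left out (silhouette 0.325); no doublet caller was run. Lengths were those of the merged exons of each gene in GENCODE M21. Each list's 2 largest and 2 smallest measured ratios were named, plus Hspa1b, Hsp90b1, Hsf1 and Hsf2. One gene that this rule names is not reported here. The members, lists and markers were chosen with earlier results of these data known. Tools were Python 3.11.15, scipy 1.17.1, scikit-learn 1.9.0 and, for TMM factors, edgeR 4.0.16.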

Additional observations from a re-analysis of the deposited data

How the results depend on the processing

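No paired analysis was possible because each cell type is 1 sample and the results come from no test. Chaperones past 2-fold upward in CFU-E cells numbered 5 of 9 with TMM and 5 with median-of-ratios factors against BFU-E cells, and 5 and 6 against erythroid-like BFU-E cells, where CPM gave 3. The list genes at least 2-fold higher were 24 with TMM, 29 with median-of-ratios factors, 15 with library sizes that left out the 100 most abundant genes and 3 without granulocyte-monocyte-like cells, against 5 in CPM. Those at least 2-fold lower were 9, 8 and 11 under the same 3 scalings and 11 with a minimum of 20 CPM, against 20. Over all measured genes 15.4% passed 2-fold upward and 18.9% downward with TMM. With median-of-ratios factors 16.6% and 17.9% did, against 6.28% and 34% in CPM. Hspa5, past 2-fold in granulocyte-monocyte-like cells, gave a count of 0 under clusters from 500 genes and 5 components, clusters from 2000 genes and 20 components, classes from marker sums, TMM, median-of-ratios factors, and without BFU-E cell 74. Of the ratios of single chaperones under these alternatives, 172 stayed within the counting interval and 89 did not. Part of the 172 was fixed in advance, so the split overstates how stable the ratios are. Level minimums of 1 and 20 CPM and a pseudocount of 0.1 do not enter a ratio of CPM. Each of these settings gave 9 values within the interval. Leaving out lymphoid-marker CFU-E cells cannot change a ratio within the BFU-E plate, and adding pseudogene copies can change only Hspa9, Hspd1 and Hspe1. Hspa8, Hspd1 and Dnajb1 kept CFU-E over BFU-E ratios of at least 2.93, 3.19 and 2.05 under each alternative. Leaving out granulocyte-monocyte-like cells alone, lymphoid-marker cells alone, cell 74 or other single cells, and scaling the class sums by TMM or median-of-ratios factors, were chosen after seeing the data. Leaving out single cells turned the direction of 3 ratios, all close to 1: Hspa5 over the plates without BFU-E cell 56 (1.01), Hspa8 within the BFU-E plate without cell 22 (0.980), and Hspe1 without cell 74 (1.18). Depth per cell limits Hspa1a, whose counts rest on 1 to 2 thinned cells. Variation between animals, plates or sequencing runs has no estimate here.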

Other observations

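Some regulators of stress responses also differed between the 2 kinds of BFU-E-plate cell. Of the 9 unfolded protein response genes, 3 were at least 2-fold higher in granulocyte-monocyte-like than in erythroid-like cells and 0 lower, beside 14.3% and 8.72% of all genes. Ern1, a sensor of unfolded protein in the endoplasmic reticulum, stood at 55 against 27.5 CPM, and, named after their values were seen, the sensors Atf6 at 82.75 against 35.4 CPM and Eif2ak3 at 10.5 against 3.85 CPM. Ern1 lies exactly at 2-fold and falls short of it under the TMM factor of 0.984. Hsf2 stood at 34.75 against 16.3 CPM, whereas Hsf1 had 62.75 and 64.6 CPM. The HSP110 relative Hspa4l was lower, at 75.5 against 160 CPM. Of 6 measured immediate early genes, 3 passed 2-fold upward and 0 downward. Jun stood at 16.75 against 1.92 CPM, Btg2 at 20 against 3.46 CPM and Dusp1 at 9.5 against 2.12 CPM. The erythroid-like values of these 3 rest on 10, 18 and 11 thinned counts, in 5.77% to 7.69% of cells. By contrast Junb, named after its value was seen, had 11.5 and 20.2 CPM. The part of these genes in the other differences was not tested.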
